A study of Mus musculus with 8 samples.

Results

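The brainstem of DBA/1 mice contained 38 transcripts that the array detected in every DBA/1 mouse and in no C57BL/6 mouse. They were chosen by measured values, from 60804 transcripts in the deposited table. A member had a signal well above background on all 4 DBA/1 arrays and on none of the 4 C57BL/6 arrays, and its mean log2 signal was at least 1 higher in DBA/1 mice. These 38 members made up 0.0625% of the table. The same rule turned around, detection on all C57BL/6 arrays and on no DBA/1 array, found 277 transcripts, or 0.456% of the table. Because the strain contrast selected the members, their strain differences are given as a description and carry no test.

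The samples were whole brainstems of male mice aged 5 weeks, 4 of the inbred strain DBA/1 and 4 of the inbred strain C57BL/6, each dissected under isoflurane and hybridized to 1 array of its own. No allele or agent is named in the labels beyond the strain. DBA/1 mice respond to loud sound with generalized seizures and respiratory arrest, C57BL/6 mice mostly do not, and the study asked how RNA of the brainstem differs between them before any sound was given. Strain was the only labelled difference, and a single slide held all 8 arrays, one strain to a row, so row and strain cannot be told apart.

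Long noncoding RNAs (lncRNAs) are transcripts without a known protein product, and many are expressed at low levels and in few cell types. The array carries probes for lncRNAs and for protein-coding messenger RNAs (mRNAs), and each probe reads 1 short stretch of its transcript. Several members belong to zinc finger gene families, which encode DNA-binding proteins, lie in large clusters of similar copies and differ widely among mouse strains.

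The members comprised 23 lncRNAs and 15 mRNAs, each from a different gene, on 14 chromosomes. Below are the array probes of 6 lncRNAs annotated as intergenic, bidirectional or antisense within an intron, shown because a call of presence or absence rests on these bases alone; they are written as the array annotation gives them, in lower case with nothing marked.
Gm11762: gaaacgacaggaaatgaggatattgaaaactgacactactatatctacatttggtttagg
AK155705: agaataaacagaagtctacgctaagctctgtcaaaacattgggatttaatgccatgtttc
AK013077: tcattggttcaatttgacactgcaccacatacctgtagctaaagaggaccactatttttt
AK044208: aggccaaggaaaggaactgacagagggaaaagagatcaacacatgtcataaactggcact
Gm12496: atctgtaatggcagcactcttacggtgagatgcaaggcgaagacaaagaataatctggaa
Gm13230: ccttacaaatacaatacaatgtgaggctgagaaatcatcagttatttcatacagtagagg
Their transcripts lie at chr11:119548630-119569046 (plus strand), chr3:54757746-54759490 (minus), chr9:83085970-83087997 (minus), chr10:119067474-119068687 (plus), chr4:53401948-53404030 (minus) and chr4:145446740-145450888 (plus), in the same order. Positions follow the array annotation. Of the 505 listed transcripts found by accession in RefSeq's GRCm38.p6, 487 lay inside the RefSeq gene. Among the members 19 were found and 17 lay inside, the exceptions being Gm13139 and Zfp534. Of the 6 transcripts above, only Gm11762 was found, so the other positions were not checked.

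Signals are log2 intensities after quantile normalization, and intensities under 5 were set to 5, which puts the floor at 2.32. Of the 152 C57BL/6 values of the members, 72 were at the floor, and 10 members were at the floor on all 4 C57BL/6 arrays. The highest C57BL/6 value of any member was 3.35. DBA/1 means ran from 3.77 to 7.06 with a median of 4.60. All 38 members had values that did not overlap between the strains after normalization, as the rule nearly forces, and the smallest gap was 0.08. Before normalization the intensities of 37 members did not overlap. The exception was Grip1, whose lowest DBA/1 intensity was 0.957 of its highest C57BL/6 intensity. The share of all tested probes without overlap was not counted, so nothing is read from these counts.

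**Figure D1:**
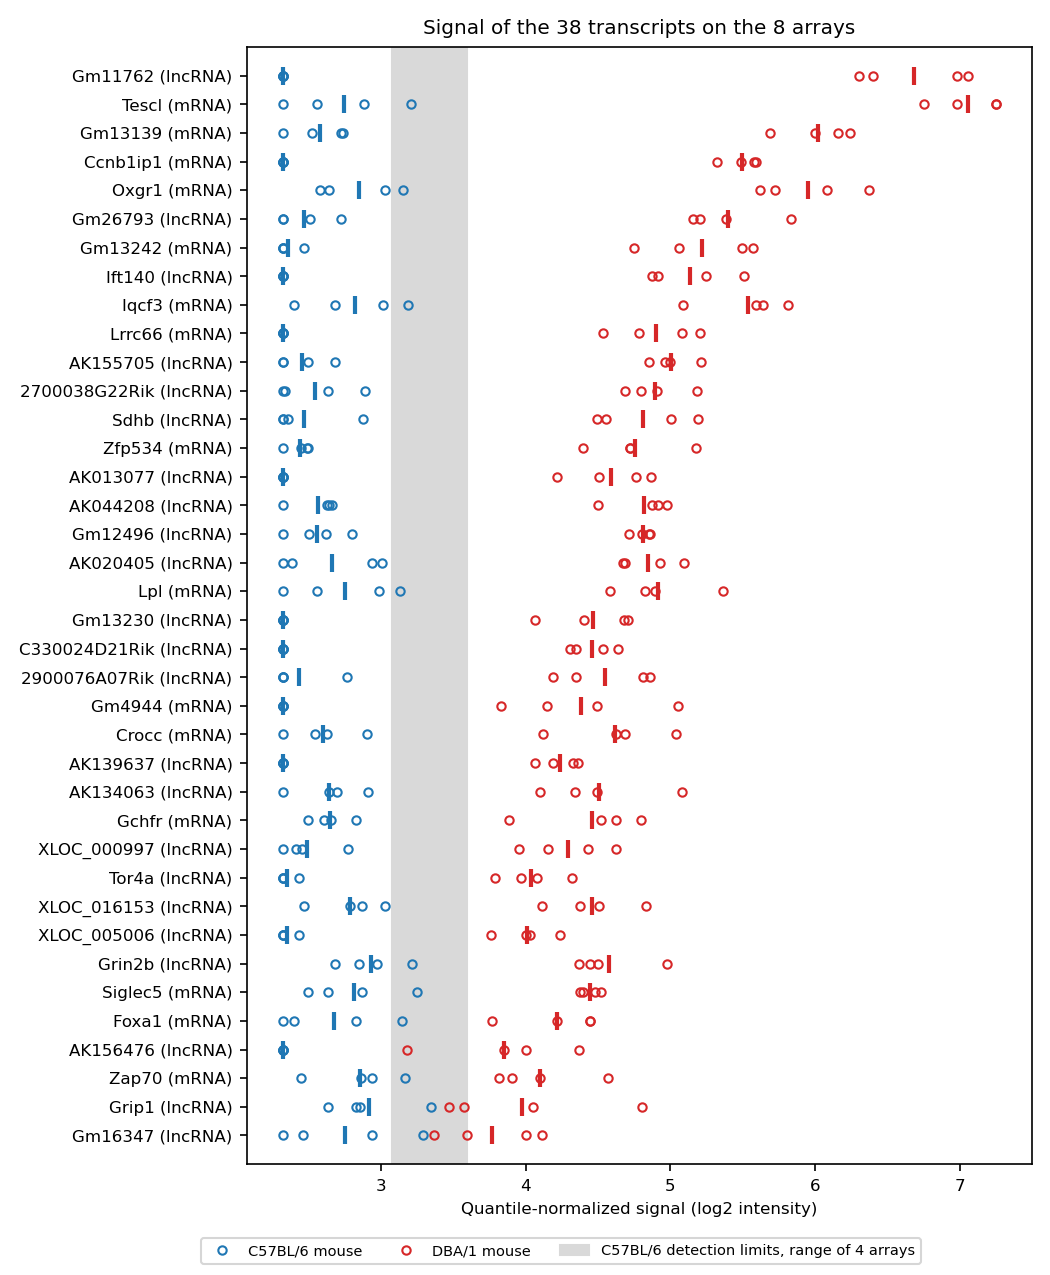
Quantile-normalized log2 signal of the 38 transcripts on each array (circles, 4 mice a strain; bars, strain means), ordered by the strain difference, with the range of the C57BL/6 detection limits shaded. C57BL/6 values sit between 2.32 and 3.35, and DBA/1 means between 3.77 and 7.06.

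The strain difference, DBA/1 minus C57BL/6 on the log2 scale, had a median of 2.15 over the members, from 1.02 to 4.36, and a median of -0.01 over the 33179 tested probes. It reached 2 in 24 members and 3 in 5. By limma's moderated test with Benjamini-Hochberg adjustment, 294 tested probes, or 0.886%, were higher in DBA/1 mice at a fold change of 2, and 37 of the 38 members were among them; since the rule used this contrast, nothing is read from that count. Nearest the required difference of 1 in the deposited table were Gm16347 at 1.03, Grip1 at 1.07 and Zap70 at 1.25 inside it, and a single probe outside it, ASMM10P010057, at 0.92.

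A member has no measured level in C57BL/6 mice, so its fold is a lower bound. It sets the DBA/1 mean against the C57BL/6 mean of whichever was greater on each array, its own signal or the detection limit there, taken as the top signal that was not well above background. Those limits ran from 3.07 to 3.59 on the C57BL/6 arrays and, taken the same way, from 3.62 to 4.42 on the DBA/1 arrays. Detection is flagged spot by spot, so a detected DBA/1 value can lie under its array's limit, which was so in at least 1 DBA/1 mouse for 12 members, among them AK156476, Gm16347, Grip1, Gm13230, Crocc and Zfp534. Their DBA/1 means enter the bounds as measured. The bound was at least 2-fold for 29 members and between 1.34-fold and 2-fold for the other 9, with a median of 2.39. With 4 arrays a strain, precision is limited by their number throughout.

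**Figure D2:**
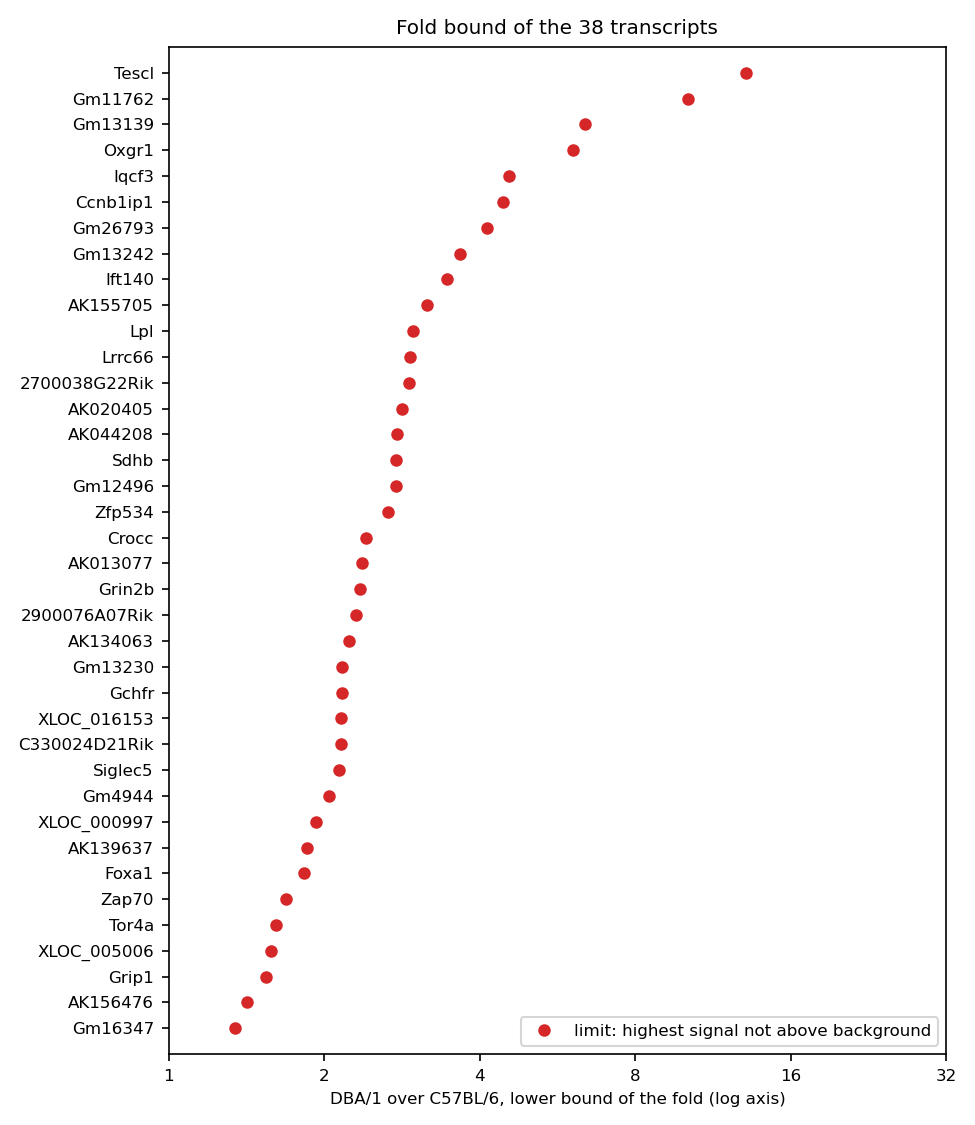
Lower bound of the fold, DBA/1 over C57BL/6, for the 38 transcripts on a log axis, with the C57BL/6 detection limit taken as the highest signal not above background. Tescl, at 13.1, and Gm11762, at 10.1, stand above the other transcripts, which reach at most 6.39.

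Among the lncRNAs, Gm11762 had the widest difference. It starts beside Nptx1, which encodes a secreted protein of synapses, and runs in the opposite direction. Its signal was 7.06, 6.30, 6.98 and 6.40 in DBA/1 replicates 1 to 4 and at the floor of 2.32 in each C57BL/6 mouse. After normalization the 4 DBA/1 mice fell into a higher and a lower pair, both far above the C57BL/6 limits. Before normalization these pairs did not appear, with intensities of 117, 70.1, 83.3 and 89.7 in replicates 1 to 4. The level was at least 10.1-fold higher in DBA/1 mice.

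Gm26793 is a natural antisense transcript of Fgf15, a growth factor gene, at chr7:144894560-144897461 on the minus strand. It measured 5.83, 5.39, 5.21 and 5.15 in DBA/1 mice and 2.32, 2.72, 2.32 and 2.51 in C57BL/6 mice. DBA/1 replicate 1 was the highest, the other 3 lay close together, and the level was at least 4.14-fold higher in DBA/1 mice.

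AK155705 lies antisense within an intron of Smad9, a transducer of bone morphogenetic protein signals. Its DBA/1 values of 5.00, 5.21, 4.96 and 4.85 stood against C57BL/6 values of 2.50, 2.32, 2.32 and 2.69. All DBA/1 mice were within a narrow band, at least 3.16-fold higher. The intergenic Gm12496 varied least of all members among DBA/1 mice, at 4.86, 4.85, 4.80 and 4.72, against 2.80, 2.32, 2.62 and 2.50 in C57BL/6 mice. Its bound was at least 2.76-fold.

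Further intergenic lncRNAs, AK013077 and AK044208, had bounds of at least 2.37-fold and 2.77-fold. AK013077 was at the floor in all C57BL/6 mice, while AK044208 was at the floor in 1. AK020405, antisense within an intron of the olfactomedin gene Olfm2, was at least 2.83-fold higher. Of the other intergenic members, AK134063, XLOC_016153 and C330024D21Rik had bounds of at least 2.23-fold, 2.16-fold and 2.16-fold, and AK139637 and XLOC_005006 of at least 1.85-fold and 1.58-fold. The remaining antisense intronic members were XLOC_000997 in Wnt10a, AK156476 in Hdac9 and Gm16347 in Csmd1, with bounds of at least 1.93-fold, 1.42-fold and 1.34-fold.

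By their position, 11 of the 23 lncRNA members were intergenic, 5 antisense within an intron, 5 overlapping coding exons in the sense direction, 1 bidirectional and 1 natural antisense. The 166 other lncRNAs that the study lists as higher in DBA/1 mice held 42.8% intergenic transcripts, beside 47.8% of the members. Natural antisense transcripts made up 13.9% of those others and 4.35% of the members. Probe GC content had the same median of 43.3% in the members and in the 282 other listed transcripts. These shares are counts with no test.

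The 5 sense-overlapping lncRNA members share exons with a coding gene, so their probes cannot be assumed to read the noncoding form alone. The Ift140 transcript comes from a gene of intraflagellar transport, which carries cargo within cilia. It measured 5.24, 5.51, 4.92 and 4.87 in DBA/1 mice, was at the floor in all C57BL/6 mice, and was at least 3.46-fold higher. The Sdhb transcript, from the gene of an iron-sulfur subunit of succinate dehydrogenase, was at least 2.76-fold higher. The Tor4a transcript, of the torsin family, had a bound of at least 1.62-fold.

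The remaining pair of this kind belong to glutamate receptor biology. Grin2b encodes a subunit of the NMDA receptor, and its noncoding transcript measured 4.50, 4.98, 4.45 and 4.37 in DBA/1 mice and 2.97, 3.22, 2.85 and 2.69 in C57BL/6 mice. The bound of that transcript was at least 2.34-fold. Grip1 encodes a scaffold that binds AMPA receptors, and its noncoding transcript had the widest spread of all members, at 4.80, 3.57, 4.05 and 3.47 against 3.35, 2.83, 2.85 and 2.63. DBA/1 replicates 2 and 4 lay just above the highest C57BL/6 mouse. Leaving out 1 mouse at a time put the strain difference of Grip1 between 0.78 and 1.23. Of the 22 listed probes of synapse and neuronal genes, these were the 2 members (9.09%), and 17 of the 22 were higher by the adjusted test. Grin2b was among the 17, whereas Grip1 was the only member not higher by that test. Over all 320 transcripts that the study lists as higher, 11.9% were members and 88.4% were higher by that test. The study chose its lists on these samples, and the synapse, receptor and germ cell lists used here hold no transcript listed as lower, so their direction was fixed by their choice.

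Among the mRNAs, Tescl, a gene related to the calcium-binding protein tescalcin, had the highest bound. Its DBA/1 signal was 7.25, 7.25, 6.75 and 6.98, and its C57BL/6 signal 3.21, 2.88, 2.56 and 2.32. The DBA/1 mice lay close together, and the level was at least 13.1-fold higher. Tescl is 1 of 5 members among the 14 probes of the germ cell and cilium list (35.7%, beside 11.9% of all listed higher transcripts), a list drawn up with these results known.

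Ccnb1ip1, a ubiquitin ligase needed for crossing over in meiosis, was among the least variable members. It measured 5.59, 5.58, 5.49 and 5.32 in DBA/1 mice and was at the floor in all C57BL/6 mice, at least 4.44-fold higher. Iqcf3, of a family with calmodulin-binding IQ motifs, measured 5.81, 5.64, 5.59 and 5.09 against 3.02, 3.18, 2.40 and 2.68. Its bound was at least 4.56-fold. Crocc encodes rootletin, the main protein of the ciliary rootlet, and was at least 2.41-fold higher. Over the whole list, 12 of 14 probes were higher by the adjusted test.

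Oxgr1 encodes a G protein-coupled receptor for the metabolite 2-oxoglutarate. Its signal was 5.72, 5.62, 6.08 and 6.37 in DBA/1 mice and 3.15, 3.03, 2.64 and 2.58 in C57BL/6 mice. The level was at least 6.07-fold higher. The intergenic lncRNA AK038711 lies 47.5 kb away and was not a member, since 1 C57BL/6 array detected it. On the arrays AK038711 measured 6.66, 6.60, 7.61 and 7.32 in DBA/1 mice and 2.32, 2.32, 2.44 and 2.92 in C57BL/6 mice. After normalization both Oxgr1 and AK038711 were higher in DBA/1 replicates 3 and 4 than in 1 and 2.

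Siglec5, named Siglecf in RefSeq, encodes a sialic acid-binding receptor of leukocytes. It was nearly constant among DBA/1 mice, at 4.39, 4.48, 4.52 and 4.38, and at least 2.14-fold higher. On the list of receptors, ligands and surface proteins, Oxgr1 and Siglec5 were the 2 members of 17 probes (11.8%), of which 12 were higher by the adjusted test. Zap70, a kinase of T cell receptor signalling, was the only member of the 11 immune probes, with 4.10, 3.91, 4.57 and 3.82 against 2.94, 3.17, 2.87 and 2.45 and a bound of at least 1.68-fold. Of those 11 probes, 10 were higher and 1, of an Xaf1 lncRNA, was lower by the adjusted test, on a list drawn up with earlier results known. The list leaves out immune genes that the study reports as lower, among them Gzmb, Klra7 and Tnfrsf1b. Its direction was thus fixed in part by its choice, and no direction of immune genes in general is read from it. Over all 1153 listed transcripts that are no member, 21.3% were higher and 70.9% lower, and the immune list's difference from these shares was not tested.

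Enzyme and regulator genes completed the mRNAs. Lpl encodes lipoprotein lipase, which releases fatty acids from circulating triglycerides, and measured 4.82, 4.58, 4.89 and 5.36 in DBA/1 mice and 2.32, 3.13, 2.99 and 2.56 in C57BL/6 mice, at least 2.97-fold higher. Gchfr encodes the feedback regulator of GTP cyclohydrolase, the first enzyme of tetrahydrobiopterin synthesis, and was at least 2.16-fold higher. Lrrc66, with leucine-rich repeats, was at the floor in all C57BL/6 mice and at least 2.94-fold higher. Foxa1, a transcription factor that opens chromatin, had a bound of at least 1.83-fold.

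Of 35 listed probes on the zinc finger list, drawn up with earlier results known, 4 were members, all on chromosome 4. They were Zfp534, which entered by its symbol, and Gm13139, Gm13242 and the lncRNA Gm13230, which were added by name. Gm13139 measured 5.69, 6.00, 6.15 and 6.24 in DBA/1 mice and 2.74, 2.73, 2.32 and 2.52 in C57BL/6 mice, at least 6.39-fold higher. Gm13242, named Zfp980 in RefSeq, measured 5.50, 5.57, 5.06 and 4.75 against 2.47 and 3 values at the floor, at least 3.66-fold higher. Zfp534 and Gm13230 had bounds of at least 2.66-fold and 2.17-fold. Of the 35 probes, 18 were higher by the adjusted test, 13 lower and 4 not called. Over all 1153 listed transcripts that are no member, 21.3% were higher and 70.9% lower. That share leaves out members, while the 35 probes include 4. Further transcripts added to the list by name were Gm13157, Gm13247, Gm13147, Gm13227, Rex2 and 2410076I21Rik. Every transcript added by name had a higher mean in DBA/1 mice. The direction of the list was thus fixed in part by its choice, and its difference from all listed transcripts was not tested. Gm4944, on chromosome 17 and named Zfp994 in RefSeq, was outside the list and varied widely, at 4.15, 3.83, 5.05 and 4.50 over the floor, at least 2.05-fold.

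The 4 chromosome 4 members lay within chr4:145446740-147702553, a stretch of 2.256 Mb in the array annotation. Gm13139 and Gm13242 were 77.1 kb apart, and Gm13242 and Gm13230 were 220 kb apart. The stretch held 10 other listed transcripts, of which 2 were higher by the adjusted test, 6 were lower and 2 were not called, so transcripts of both directions lay side by side. The annotation puts Gm13139 at chr4:145781543-145829939, whereas RefSeq places the gene of its accession, Zfp991, at chr4:147132093-147180579; which copy the probe reads was not tested. Its cross-hybridization note names the transcript of Znf41-ps, and the listed probe for that transcript ran the other way, at 2.75 ± 0.51 in DBA/1 mice and 3.91 ± 0.25 in C57BL/6 mice (SD, n = 4 each; limma adjusted p = 0.0165).

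**Figure D3:**
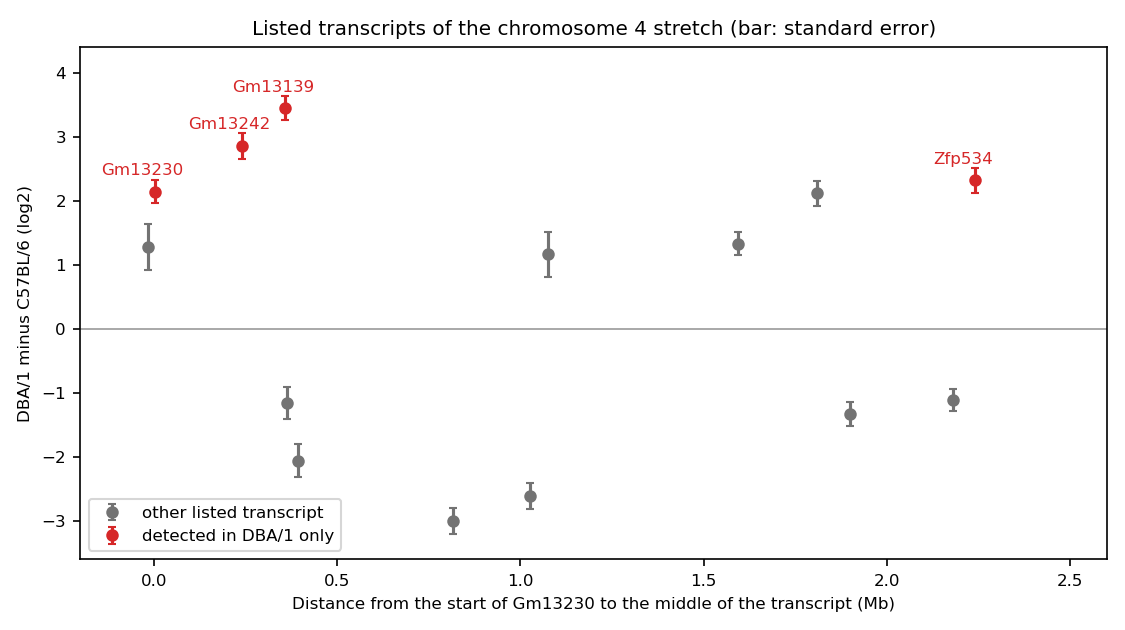
Strain difference (log2, DBA/1 minus C57BL/6, with standard error) of the 14 listed transcripts in the chromosome 4 stretch, against distance from the start of Gm13230 in Mb. The 4 transcripts detected in DBA/1 only lie between 2.14 and 3.44, and 6 others lie below 0.

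Sdhb and Crocc, the other close pair of members, were 39.8 kb apart on chromosome 4. Chromosome 4 held 7 of the 38 members, or 18.4%, beside 8.51% of the other listed higher transcripts. Listed transcripts within 300 kb of a member, or sharing its gene, numbered 44 apart from the members. Of these, 14 were higher (31.8%) and 26 lower (59.1%) by the adjusted test. The shares over all 1153 listed transcripts that are no member were 21.3% and 70.9%, a difference that was not tested. The higher ones included further probes of the member genes 2700038G22Rik and 2900076A07Rik, and Gm26653, an antisense transcript of Grin2b. Among the lower ones, Znf41-ps was counted as sharing a gene with Gm13139. The 44 are therefore not all separate neighbours, and no local excess is read from them.

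Detection in DBA/1 mice only was a property of the probe and not always of the gene. 2700038G22Rik was at least 2.93-fold higher by its member probe, while a second probe for another of its transcripts was detected on all 8 arrays. That second probe measured 7.04 ± 0.30 in DBA/1 mice and 5.14 ± 0.24 in C57BL/6 mice (SD, n = 4 each; limma adjusted p = 9.5e-05). 2900076A07Rik had 4 further probes, each detected in all 8 mice and higher in DBA/1 mice by 1.25 to 1.36 on the log2 scale. Cross-hybridization notes were attached to 5 of the 38 members, or 13.2%, and to 10.3% of the other listed higher transcripts.

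Within DBA/1 mice the members varied about as widely as other probes of their range. Their SD among the 4 mice had a median of 0.30, from 0.07 for Gm12496 to 0.61 for Grip1, beside a median of 0.31 over 17953 tested probes with DBA/1 means in the same range. It was under 0.25 in 13 members and over 0.5 in 2. After normalization, replicate 1 was the highest DBA/1 mouse for 15 members and replicate 4 the lowest for 19. The median deviation from a member's DBA/1 mean was 0.09 in replicate 1 and -0.09 in replicate 4. Before normalization, replicate 4 was the brightest DBA/1 array, with a 75th percentile of intensity of 76.4. The same counts over all tested probes were not made, so nothing is read from these ranks.

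**Figure D4:**
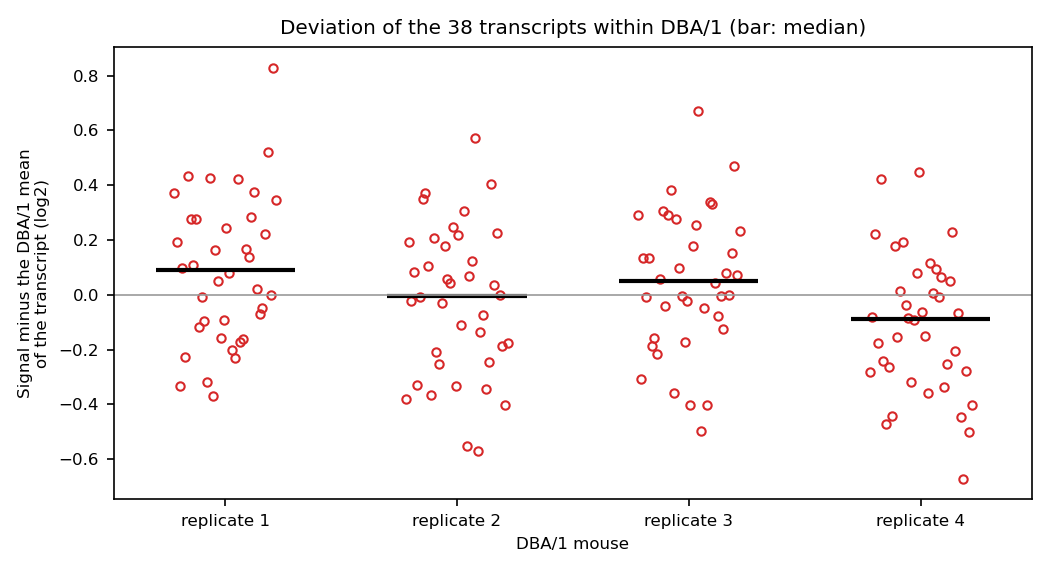
Deviation of each of the 38 transcripts from its own DBA/1 mean (log2) in the 4 DBA/1 mice, with the median as a bar. The medians run from -0.09 in replicate 4 to 0.09 in replicate 1.

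The arrays of the 2 strains differed in brightness. Between 29378 and 33439 probes were well above background on a DBA/1 array and between 33123 and 36250 on a C57BL/6 array, and the 75th percentile of intensity was 50.3 to 76.4 against 73.7 to 112. The part of this in the counts of 38 and 277 transcripts was not tested. Of the 25 cell type markers considered, 2 had a named probe. The serotonin neuron gene Tph2 was detected on all 8 arrays and was higher in DBA/1 mice, at 11.39 ± 0.21 against 9.76 ± 0.65 (SD, n = 4 each; limma adjusted p = 0.0042). An lncRNA of Slc6a4, the serotonin transporter gene, was detected on 5 arrays and was also higher, at 4.63 ± 0.40 against 3.05 ± 0.51 (SD, n = 4 each; limma adjusted p = 0.0042). Probes were named only from the study's lists of transcripts that differed, so a marker could appear here only if it differed. The other markers had no named probe, so nothing is read from the shared direction of these 2. Their part in the members' values was not tested. In whole tissue, more cells of a type and more RNA per cell cannot be told apart.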

How the data were processed

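RNA of 8 brainstems was freed of ribosomal RNA, labelled by random priming and hybridized to a one-colour lncRNA and mRNA array. The authors deposited spot intensity values with detection flags (Feature Extraction 11.0.1.1, per the labels), background-subtracted but not normalized between arrays, and a table of quantile-normalized log2 values. Here, control spots and outliers were dropped, replicate spots averaged, intensities under 5 set to 5, and arrays quantile-normalized on the log2 scale (R 4.3.3, limma 3.58.1; Python 3.11.15). Probes well above background on at least 4 arrays with at least 1 value in each strain (33179) were compared without a block by lmFit and eBayes, with Benjamini-Hochberg adjustment. A requirement of at least 2 values in each strain (32883 probes) was used at first and replaced after the counts of both had been seen, to match earlier processing of these data.

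The members came from the flags (maximum over spots) and the deposited log2 table; 3 probes that met the rule are not reported here. The members, gene lists and named genes were chosen with earlier results of these data known. Named were the 10 lncRNA and 10 mRNA members with the highest fold bound, the 3 widest and 3 narrowest ranges among DBA/1 mice, the 3 nearest each side of the difference of 1, members of a gene list, and members within 300 kb of another; others were named after their values were seen. Gene names and probe sequences came from the study's supplementary lists, RefSeq names and positions from GRCm38.p6. Replicates were separate mice. The fitting code was tested on simulated data.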

Additional observations from a re-analysis of the deposited data

How the results depend on the processing

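The rule fixed the direction of the members' differences, so their sign says nothing of stability. Normexp with an offset of 50 compressed dim signals: the median difference fell to 0.46, the median SD to 0.10 and the probes called higher to 85, and 2 members still differed by 1 or more. A floor of 1 gave a median difference of 2.51. The rule counted 67 transcripts with at least 3 DBA/1 arrays, 62 with at most 1 C57BL/6 array and 24 with a difference of 2 or more. The lowest signal above background equalled the floor of 2.32 on all 8 arrays, so with it as the limit the value for the 28 named members, 4.89 in the median beside a bound of 2.80, is the fold of the means and no bound. Leaving out each mouse gave 273 to 334 probes called higher, 40 to 50 transcripts under the rule, median differences of 2.12 to 2.19 and median SDs of 0.28 to 0.31. Requiring at least 2 values in each strain, an alternative added after seeing the data, gave 293 higher probes against 294. The replicate block gave 311; deviations of same-numbered mice correlated at 0.38, 0.03, 0.14 and 0.35, so the numbers were not taken to pair the samples. The methods' t-test called 208, no filter 226 and the unadjusted p 350. Levels under the detection limit of an array were not measured.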
